A study of Rattus norvegicus with 14 samples.

Results

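The genes described here are 10 genes of the insulin and insulin-like growth factor (IGF) system in PCCL3 cells, a differentiated rat thyroid follicular cell line. They were taken by name from the 16816 genes of the count table: the receptors Insr, Igf1r and Igf2r, the docking proteins Irs1 and Irs2, and the binding proteins Igfbp2, Igfbp3, Igfbp4, Igfbp5 and Igfbp7. One PCCL3 line stably expressed the human PAX8-PPARG fusion protein (PPFP) with a 3xMyc tag (PPFP cells), and a second line carried the empty vector (EV cells). Each was cultured for 16 hours with 1 μM pioglitazone, a ligand of PPARG, or with vehicle, which gave 4 groups of 3 RNA-seq libraries, 12 in all. Both lines, with and without the drug, shared the PCCL3 parent and had been transfected and kept as stable lines. All 4 groups grew in medium with serum, hydrocortisone, transferrin, thyrotropin and bovine insulin, so the insulin receptor had its ligand in every sample. Since 1 line of each kind was sequenced, the presence of PPFP and other differences between the lines cannot be told apart, and in bulk RNA neither can fewer expressing cells and less RNA per cell.

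Insulin acts through the insulin receptor and IGF1 and IGF2 through the IGF1 receptor. Both are tyrosine kinases that phosphorylate the docking proteins IRS1 and IRS2, which recruit PI3-kinase and switch on AKT. The IGF2 receptor, which is also the cation-independent mannose 6-phosphate receptor, carries IGF2 to lysosomes, and secreted IGF binding proteins hold IGFs outside the cell. In thyroid follicular cells insulin and IGF1 act together with thyrotropin on growth and on thyroid genes.

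The libraries held between 23724703 and 35240176 counts. Levels are given as normalized CPM, that is read counts scaled to a common library size (CPM) by the trimmed mean of M values, and are compared within a gene only, since gene lengths of the annotation used were not at hand. Pparg, whose count does not separate the rat gene from the transfected fusion, rose from 1.60 ± 0.35 CPM (SD, n = 3) in EV libraries to 54.1 ± 6.82 CPM in PPFP libraries without pioglitazone (log2 fold change 5.08, SE 0.19, adjusted p = 3.63e-06). The summed level of 7 thyroid follicular cell markers was between 9827 and 14139 CPM in every library. The 4 markers of thyroid C cells were at or under 3 counts in every library, and so were 4 of the 6 fibroblast markers, whose summed level was 22.3 to 24.3 CPM in EV and 20.4 to 34.5 CPM in PPFP libraries.

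The bases before the start site are shown for the binding proteins with the largest falls, Igfbp4 and Igfbp5, and for the members that were higher in PPFP cells, Igf2r and Igfbp7. Each sequence is the 250 bases before the RefSeq start site in GRCr8, read in the direction of the gene. They are chr10:84491221-84491470, plus strand for Igfbp4; chr9:81914188-81914437, minus strand for Igfbp5; chr1:50526628-50526877, plus strand for Igf2r; and chr14:31091486-31091735, plus strand for Igfbp7. Capitals mark TATAAA, the TATA box, in Igfbp4 and GGGCGG or its complement, the GC box, in Igf2r and Igfbp7.
Igfbp4: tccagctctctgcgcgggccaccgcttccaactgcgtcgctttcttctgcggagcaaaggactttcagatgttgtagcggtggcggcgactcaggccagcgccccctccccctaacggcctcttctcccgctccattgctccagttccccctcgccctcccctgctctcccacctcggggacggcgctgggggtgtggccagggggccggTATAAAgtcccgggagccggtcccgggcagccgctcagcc
Igfbp5: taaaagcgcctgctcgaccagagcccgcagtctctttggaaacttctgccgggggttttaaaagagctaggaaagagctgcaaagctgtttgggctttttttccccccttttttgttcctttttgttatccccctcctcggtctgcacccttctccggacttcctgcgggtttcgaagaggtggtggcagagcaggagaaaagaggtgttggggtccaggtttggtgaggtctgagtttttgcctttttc
Igf2r: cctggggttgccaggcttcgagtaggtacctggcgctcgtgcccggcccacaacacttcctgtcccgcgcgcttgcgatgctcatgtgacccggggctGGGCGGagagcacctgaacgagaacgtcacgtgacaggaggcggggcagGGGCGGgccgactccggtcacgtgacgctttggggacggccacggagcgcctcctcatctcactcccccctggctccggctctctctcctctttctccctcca
Igfbp7: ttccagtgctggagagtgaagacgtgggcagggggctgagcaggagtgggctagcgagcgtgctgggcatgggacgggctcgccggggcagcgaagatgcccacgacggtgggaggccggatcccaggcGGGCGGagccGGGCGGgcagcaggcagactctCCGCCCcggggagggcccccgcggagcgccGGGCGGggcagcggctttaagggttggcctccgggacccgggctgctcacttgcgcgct

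Of the 10 members, 9 had such a window in the RefSeq table, and Irs2 was the one without. The windows were searched on both strands for AGGTCA, the half-site of nuclear receptors such as PPARG, and GCGTGAC, the core of PAX2, PAX5 and PAX8 sites. They were also searched for GTAAACA, the FoxO site, and for TATAAA and GGGCGG, and no match of one motif overlaps a match of another. AGGTCA and GCGTGAC are in none of the 9 windows, while 14.1% and 1.74% of all 33469 windows of this length hold them. The FoxO letters are in the window of Insr alone, 100 bases before its start on the opposite strand, and in 3.21% of all windows. TATAAA is in Igfbp4 alone, 40 bases before the start, and in 12.9% of all windows. GGGCGG is in 5 of the 9 windows (Igf2r, Igf1r, Igfbp2, Irs1 and Igfbp7), with 4 matches in Igfbp7, and in 30.5% of all windows. Igfbp5 has 51.6% G and C in its window, against 64.0% to 79.6% in the other 8 members and a median of 51.2% over all windows. A match is no evidence of a bound site, and letters that are missing here may lie elsewhere.

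The first question was which members differ between PPFP and EV cells without the drug. In PPFP cells 5 members were lower (Irs1, Irs2, Igfbp3, Igfbp4 and Igfbp5) and 2 were higher (Igf2r and Igfbp7) at an adjusted p under 0.05. Insr and Igf1r did not pass the test, and Igfbp2 had too few counts to be tested. Over all 10264 genes tested, 23.1% passed in the lower and 22% in the higher direction, and with a fold change above 2 added, 7.31% and 7.27%. Of the 9 members tested, 4 passed with a fold change above 2 in the lower direction (Irs1, Irs2, Igfbp4 and Igfbp5) and 1 in the higher (Igf2r). Irs2 was short of this fold limit without PPFP replicate 1 (log2 fold change -0.99) and Igf2r without PPFP replicate 3 (0.94), which left none higher, while Igfbp7 was past it without EV replicate 2 (1.01). The libraries of the lines did not overlap for the 5 members that were lower and the 2 that were higher, and neither did they for 28.8% of all genes tested in the lower and 27.6% in the higher direction. The median log2 fold change of these 9 was -0.83, against 0.0016 over all genes tested.

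**Figure D1:**
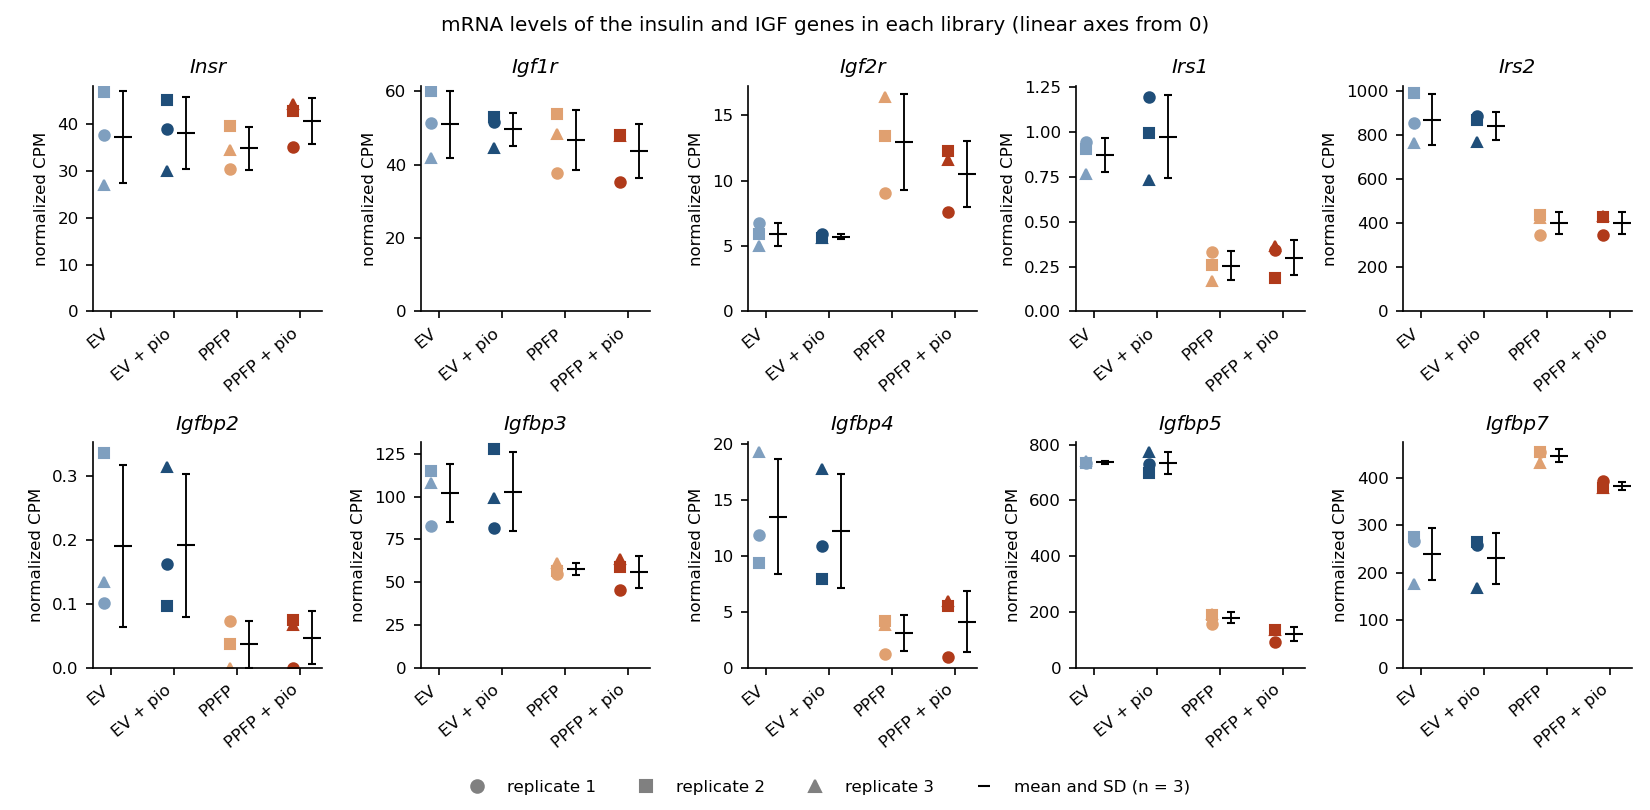
Normalized CPM (vertical axes, linear, from 0) of the 10 members in the 12 libraries, by group (horizontal axes; pio, pioglitazone). Circles, squares and triangles are replicates 1, 2 and 3, and the bar beside them is the mean and SD (n = 3). For Igfbp5 the 6 EV libraries lie between 697 and 774 CPM and the 6 PPFP libraries between 91.6 and 192.

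The receptor kinases gave overlapping groups. Insr, the insulin receptor, was at 37.7, 46.8 and 27.1 CPM in the 3 EV libraries and 30.4, 39.5 and 34.5 CPM in the 3 PPFP libraries without pioglitazone, in the order of replicates 1 to 3, which holds throughout. The difference was -0.10 on the log2 scale (SE 0.20, adjusted p = 0.722), with a 95% interval from -0.49 to 0.29. Igf1r, the receptor through which IGFs drive growth, was at 51.2, 60.1 and 41.8 CPM in EV and 37.7, 53.8 and 48.4 CPM in PPFP cells. For both receptors the ranges of the lines overlapped, and for Insr the EV libraries were spread more widely than the PPFP libraries. For Igf1r the difference was -0.13 (SE 0.17, adjusted p = 0.573), and its interval ran from -0.46 to 0.21.

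Igf2r stood apart from the other receptors. It was at 6.79, 5.94 and 5.03 CPM in EV and at 9.05, 13.4 and 16.4 CPM in PPFP cells. Each PPFP library was above each EV library, although the PPFP libraries themselves differed widely. The rise was 2.19-fold, 1.13 on the log2 scale (SE 0.23, adjusted p = 0.00588).

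Both docking proteins were lower in PPFP cells. Irs2, which links either receptor to PI3-kinase, was at 857, 990 and 763 CPM in EV and 345, 438 and 424 CPM in PPFP cells. The groups did not overlap, and the fall was 2.16-fold (log2 fold change -1.11, SE 0.13, adjusted p = 0.000476). Irs1, its close relative, had few reads, with 28, 27 and 23 counts in EV cells and 9, 7 and 4 counts in PPFP cells. Every PPFP library was again under every EV library. As CPM these were 0.946, 0.906 and 0.766 against 0.331, 0.261 and 0.171, a 3.34-fold fall (log2 fold change -1.74, SE 0.33, adjusted p = 0.00388).

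The binding proteins went in both directions. Igfbp5, which binds IGFs and the extracellular matrix, was at 734, 732 and 741 CPM in EV and at 157, 188 and 192 CPM in PPFP cells. The EV libraries were nearly alike, and the PPFP libraries were all far under them. The fall was 4.11-fold, -2.04 on the log2 scale (SE 0.10, adjusted p = 8.94e-06), the smallest adjusted p among the members.

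Igfbp4, which is known mainly as an inhibitor of IGF action, was at 11.9, 9.39 and 19.3 CPM in EV cells. In PPFP cells it was at 1.21, 4.22 and 3.85 CPM. No library of one line reached the range of the other, but the spread inside each line was wide. The fall was 4.38-fold, -2.13 on the log2 scale (SE 0.45, adjusted p = 0.00654), with an interval from -3.01 to -1.25.

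Igfbp3, the main IGF carrier of serum, was at 83.1, 115 and 108 CPM in EV and 54.9, 56.3 and 61.4 CPM in PPFP cells. The groups did not overlap and the fall was 1.78-fold (log2 fold change -0.83, SE 0.13, adjusted p = 0.00164), short of the limit of 2. Igfbp7, a relative that binds IGFs weakly and insulin as well, went the other way. Its level was 268, 276 and 177 CPM in EV and 456, 454 and 432 CPM in PPFP cells. EV replicate 3 was the lowest of the EV libraries, and all 3 PPFP libraries were above the EV range. The rise was 1.86-fold (log2 fold change 0.90, SE 0.16, adjusted p = 0.00329).

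Igfbp2, which lies next to Igfbp5 with both genes pointing at each other in the RefSeq annotation, was near the limit of detection. It had 3, 10 and 4 counts in EV cells and 2, 1 and 0 counts in PPFP cells without the drug, and with pioglitazone 6, 3 and 9 against 0, 2 and 2. The PPFP libraries were all at or under 3 counts and the EV libraries at or above it, so that no fold is given. At this depth its level in PPFP cells cannot be told from 0.

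**Figure D2:**
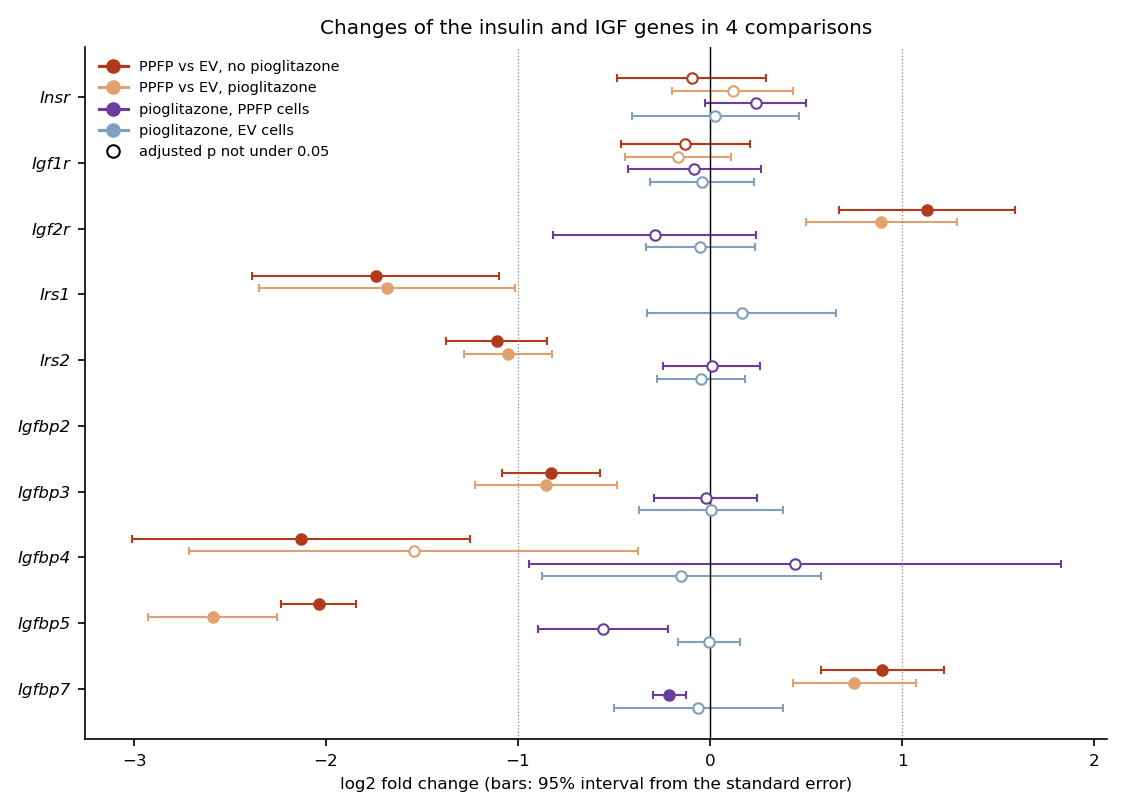
Log2 fold change (horizontal axis) of each member (vertical axis) in the 4 pairwise comparisons, with bars for the 95% interval. Filled points passed at an adjusted p under 0.05, open points did not, dotted lines mark a fold change of 2, and genes with too few counts have no point. The points of Igfbp5 for PPFP versus EV cells lie at -2.04 and -2.59, and those of Insr and Igf1r have intervals that cross 0.

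The same comparison was made with both lines in pioglitazone. Igf2r and Igfbp7 were higher in PPFP cells, and Irs1, Irs2, Igfbp3 and Igfbp5 were lower, 2 and 4 of 9 members tested, against 26.3% and 26.4% of the 10291 genes tested. With the fold limit added, 3 members were lower (Irs1, Irs2 and Igfbp5), against 10.4% of all genes, and none was higher. Without PPFP replicate 1 Irs2 was short of the fold limit (-0.95) and Igf2r past it (1.09), and without EV replicate 1 Igfbp3 was past it (-1.02). Among the 9 members tested, groups did not overlap for 5 in the lower direction (those 4 that passed and Igfbp4) and 2 in the higher. Of all genes tested 32% and 31% did not. Igfbp2, which was not tested, did not overlap either. Igfbp5 was at 729, 697 and 774 CPM in EV and 91.6, 134 and 136 CPM in PPFP cells. The ranges were far apart, and the difference was 6.02-fold (log2 fold change -2.59, SE 0.17, adjusted p = 2.98e-05).

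Igfbp4 did not pass in this comparison. Its EV libraries were at 10.9, 7.94 and 17.8 CPM and its PPFP libraries at 0.947, 5.48 and 5.94 CPM. The groups did not overlap, and PPFP replicate 1 was far under the other two. The log2 fold change was -1.54 (SE 0.60, adjusted p = 0.0634). Over the alternative analyses its adjusted p ran from 0.0295 to 0.141, and 4 of the 14 put it under 0.05.

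Irs2 was at 888, 868 and 769 CPM in EV and 346, 426 and 432 CPM in PPFP cells with the drug, again without overlap (log2 fold change -1.05, SE 0.12, adjusted p = 0.000302). Irs1 had 44, 31 and 21 counts in EV cells and 9, 5 and 11 counts in PPFP cells (-1.68, SE 0.34, adjusted p = 0.00493). Igf2r was at 5.94, 5.62 and 5.59 CPM in EV and 7.61, 12.3 and 11.5 CPM in PPFP cells (log2 fold change 0.89, SE 0.20, adjusted p = 0.00806). Igfbp7 was at 260, 264 and 168 CPM against 394, 378 and 378 CPM (0.75, SE 0.16, adjusted p = 0.0067). For both genes the PPFP libraries were above all EV libraries. Igfbp3 was at 81.9, 128 and 99.1 CPM in EV and 45.6, 59.1 and 63.7 CPM in PPFP cells, and its difference was -0.86 (SE 0.19, adjusted p = 0.00734). Insr (0.12, interval -0.20 to 0.43) and Igf1r (-0.17, interval -0.44 to 0.11) did not pass.

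The next question was what the drug did within each line. In PPFP cells Igfbp7 fell, and it was the one member of 8 tested that passed; Irs1 and Igfbp2 had too few counts. Over all 10064 genes tested 7.13% passed in the lower and 7.63% in the higher direction. Igfbp7 went from 456, 454 and 432 CPM to 394, 378 and 378 CPM. The groups did not overlap, as for 17.9% of all genes tested in the lower direction, and the fall was 1.16-fold (log2 fold change -0.21, SE 0.044, adjusted p = 0.024). The call was lost without PPFP replicate 2 or 3 of either treatment (adjusted p = 0.0818 and 0.0641 without the untreated libraries, 0.118 and 0.105 without the treated ones).

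Igfbp5 in PPFP cells went from 157, 188 and 192 CPM to 91.6, 134 and 136 CPM. Each treated library was under each untreated library. The difference was -0.56 on the log2 scale (SE 0.17, adjusted p = 0.0837) and did not pass. Over the 14 alternative analyses its adjusted p ran from 3.16e-10 to 0.245, and 4 put it under 0.05.

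Libraries with the same replicate number varied together within a line, so that the treated library can be set against the untreated one of its number, although in PPFP cells replicates 2 and 3 also varied with each other. By number the log2 difference of Igfbp5 was -0.77, -0.49 and -0.49 in PPFP cells and -0.0086, -0.07 and 0.063 in EV cells. For Igfbp7 it was -0.21, -0.27 and -0.19 in PPFP cells and -0.045, -0.059 and -0.078 in EV cells. Both binding proteins were lower in the treated library of every PPFP pair. With the replicate number as a block 5 of 8 members passed, 3 lower and 2 higher, against 23.9% and 27.7% of all genes tested in those directions. These were Igfbp5 (-0.57, SE 0.047, adjusted p = 3.16e-10), Igfbp7 (-0.21, SE 0.032, adjusted p = 6.31e-06) and Igf2r (-0.29, SE 0.085, adjusted p = 0.00657), and in the higher direction Insr (0.24, SE 0.054, adjusted p = 0.000764) and Igfbp4 (0.41, SE 0.15, adjusted p = 0.0222).

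Those calls differ in how steady the pairs are. Insr was higher with the drug in all 3 PPFP pairs, by 0.20, 0.12 and 0.35, and Igf2r lower in all 3, by -0.24, -0.12 and -0.49. Igfbp4 was higher in pairs 2 and 3, by 0.34 and 0.57, and at -0.24 in pair 1, the pair with 25 to 33 counts. Irs2 (0.0076, SE 0.032), Igfbp3 (-0.032, SE 0.057) and Igf1r (-0.083, SE 0.049) did not pass with the block.

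**Figure D3:**
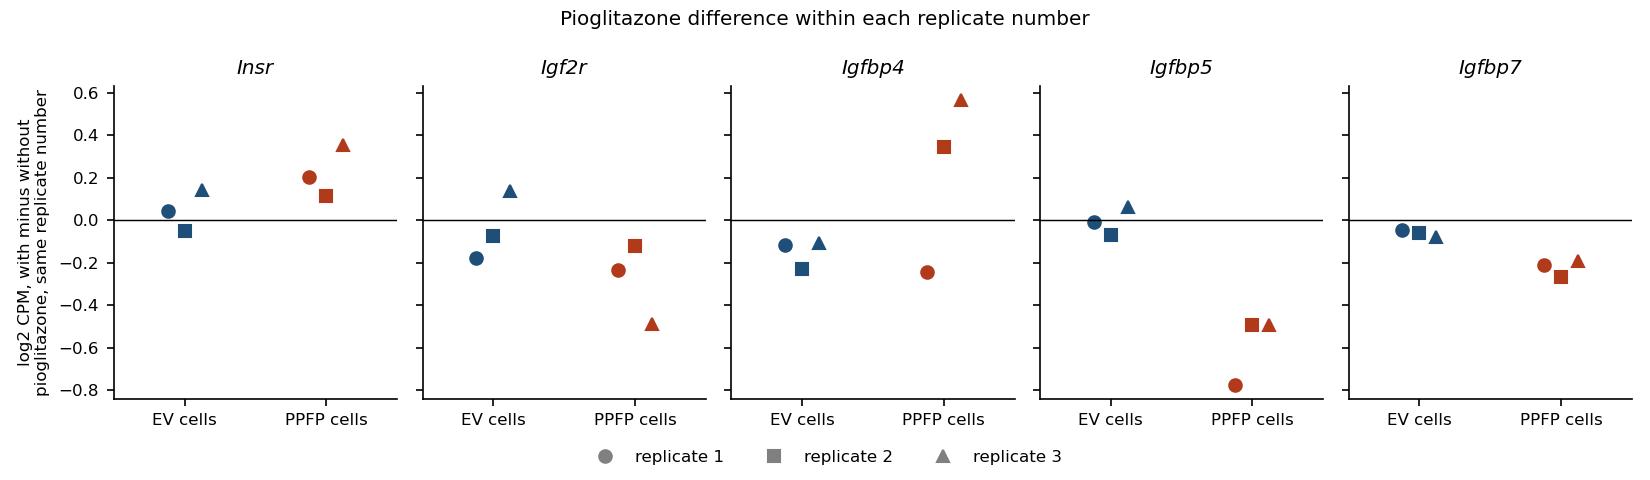
Log2 CPM with minus without pioglitazone (vertical axis) for the treated and untreated library of the same replicate number, in EV and PPFP cells (horizontal axes), for the 5 members that passed with the replicate block in PPFP cells. Each point is 1 pair, and the line marks 0. The PPFP points of Igfbp5 lie at -0.77, -0.49 and -0.49 and those of EV cells between -0.07 and 0.063.

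In EV cells no member passed with pioglitazone, and none of the 10146 genes tested did (0%), by edgeR's quasi-likelihood test. Of the 9 members tested 0 had an unadjusted p under 0.05, and edgeR's tagwise test and DESeq2 gave 0 as well. With the replicate block 0 of 9 members passed, and 1 (Igfbp4) had an unadjusted p under 0.05. For Igfbp5 the difference in EV cells was -0.0059 (SE 0.082), with an interval from -0.17 to 0.16. For Irs2 it was -0.049 (SE 0.12), with an interval from -0.28 to 0.18.

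The difference in drug response between the lines was tested as an interaction over all 12 libraries. None of 9 members passed by edgeR's quasi-likelihood test, against 2.64% of 10482 genes, and 1 (Igfbp5) had an unadjusted p under 0.05; the tagwise likelihood ratio test and DESeq2 likewise passed 0. With a replicate block in each line 3 members passed, against 34.3% of all genes. Igfbp5 had an interaction of -0.58 (SE 0.069, adjusted p = 2.53e-05) with the block and -0.57 (SE 0.19, adjusted p = 0.173) without it. Igfbp7 had -0.16 (SE 0.043, adjusted p = 0.00996) and Igfbp4 0.55 (SE 0.16, adjusted p = 0.0188) with the block, against adjusted p = 0.907 and 0.891 without it.

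Ratios of counts of members inside a library do not depend on how libraries are scaled. The pairs were chosen after the values were seen, and a ratio of counts is not one of molecules, since gene lengths differ. Igfbp7 to Igfbp5 was between 0.239 and 0.376 in the EV libraries and between 2.25 and 2.90 in the PPFP libraries without the drug. With it the ratio was between 0.217 and 0.379 in EV and between 2.78 and 4.30 in PPFP cells. Without the drug the lines differed by 2.97 in the mean log2 of this ratio, and their libraries were far apart. Irs2 to Insr was between 21.1 and 28.2 in EV and between 11.1 and 12.3 in PPFP cells without pioglitazone, and between 19.2 and 25.7 and between 9.77 and 9.95 with it. Igfbp5 to Igfbp3 was between 6.35 and 8.83 in EV and between 2.86 and 3.35 in PPFP cells without pioglitazone, and between 5.46 and 8.90 and between 2.01 and 2.26 with it. These ratios were not tested, since the pairs were chosen for their values.

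**Figure D4:**
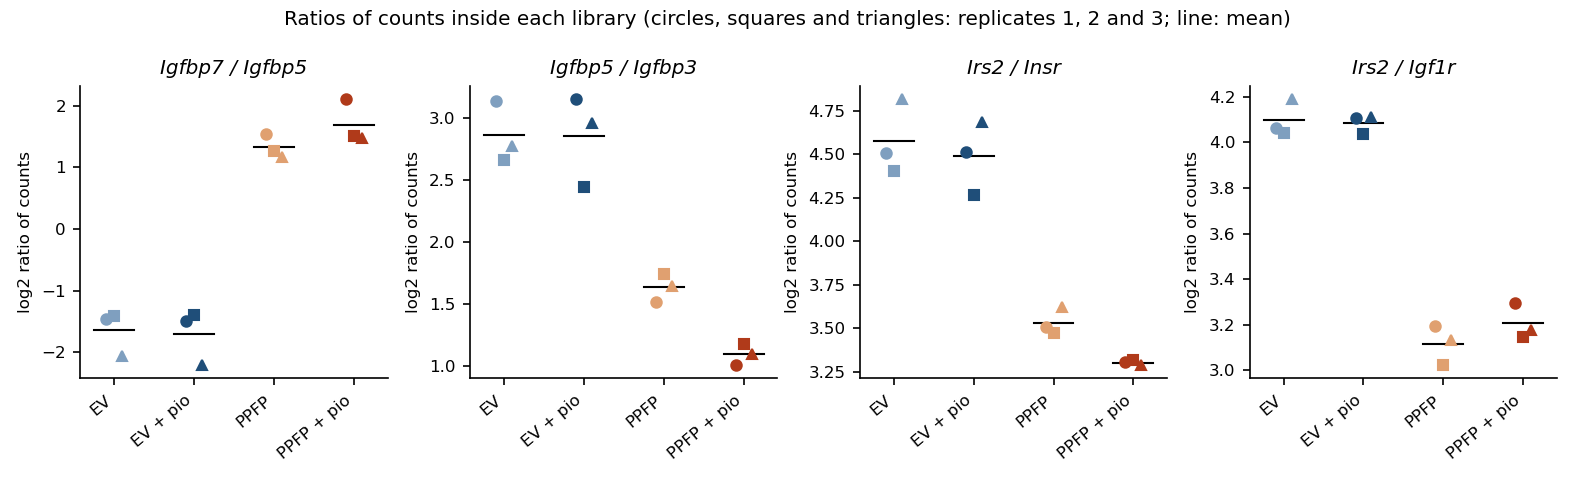
Log2 ratio of the counts of members inside each library (vertical axes) by group (horizontal axes; pio, pioglitazone). Circles, squares and triangles are replicates 1, 2 and 3, and lines are means. The mean log2 ratio of Igfbp7 to Igfbp5 is -1.64 in EV cells and 1.33 in PPFP cells without pioglitazone.

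Genes with the most similar profile over the 12 libraries were sought for the members that passed with a fold change above 2. The measure was the root mean square difference of centred log2(CPM + 0.5), taken over genes whose mean reached 1 CPM. The nearest to Igfbp5 were Plxdc1 (0.12), Sectm1b (0.15) and Slc5a5 (0.16), the last being the iodide transporter of thyroid cells, with a mean of 1122 CPM in the EV and 339 CPM in the PPFP libraries without the drug. For Irs2 they were Slc4a4 (0.08), a bicarbonate transporter, Dvl2 (0.09) and Cachd1 (0.094). Igf2r was nearest to Med12l (0.095) and Cyp4f17 (0.10), and Irs1 to Cstf2t (0.12), Ddhd1 (0.12) and Zdhhc20 (0.13), where the added 0.5 flattens a gene as low as Irs1. For Igfbp4 the nearest genes were farther off, Grin1 at 0.33 and Soat2 and Slc16a3 at 0.47.

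The rest of the pathway was taken from a list of 69 genes, of which 61 are in the table. Without pioglitazone 50 were tested, and 10 were higher and 17 lower in PPFP cells, 3 and 4 of them by more than 2-fold. Of all genes tested 22% were higher and 23.1% lower, and 7.27% and 7.31% past the fold limit, so these shares are read against that background, here and for the roles below, whose counts were not tested. The median log2 fold change of the list was -0.15, against 0.0016 over all genes tested. Without EV replicate 1 the count was 17 and without PPFP replicate 3 it was 16, in place of 27. Of all genes tested, 3537 of 10365 and 3444 of 10376 passed in these fits, against 4635 of 10264 in the full fit. Without EV replicate 2, PPFP replicate 1 or PPFP replicate 2, 4249 of 10372, 4529 of 10422 and 3778 of 10366 passed. The role counts below with 1 library left out are read against the fit without that library. With pioglitazone 10 of 49 were higher and 19 lower, against 26.3% and 26.4% of all genes tested.

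Few or no reads came from the ligand genes. Igf1, Ins1 and Ins2 had 0 counts in all 12 libraries, which allows up to 3 counts in each. Igf2 had 12 to 22 counts in EV cells and 8 to 11 in PPFP cells without the drug (log2 fold change -0.62, SE 0.36, adjusted p = 0.2), and its groups overlapped. Among other binding proteins and carriers, Igfals, the subunit that forms the large serum complex with IGF and IGFBP3, was higher in PPFP cells (15.6 ± 2.22 against 24.9 ± 2.09 CPM, log2 fold change 0.67, adjusted p = 0.00468). It fell with pioglitazone in PPFP cells (-0.63, SE 0.082, adjusted p = 0.00462). Igfbp6 (0.68, adjusted p = 0.0602) and Esm1 (0.32, adjusted p = 0.444) did not pass.

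Of 4 proteases of the binding proteins and their inhibitors 1 passed, in the lower direction, and without PPFP replicate 1 there were 1 higher and 1 lower. Stc2, an inhibitor of the protease that cuts IGFBP4, was at 79.5 ± 15.7 CPM in EV and 23.4 ± 1.87 CPM in PPFP cells (log2 fold change -1.77, SE 0.16, adjusted p = 0.000112). With pioglitazone it rose in PPFP cells to 48.4 ± 4.84 CPM (1.06, SE 0.11, adjusted p = 0.00192). The PPFP libraries stayed under all EV libraries with and without the drug, at most at 51.7 CPM against at least 62.3 CPM. The protease Htra1 (0.49, adjusted p = 0.0543) and Stc1 (-0.42, adjusted p = 0.272) did not pass.

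Among adaptors and docking proteins other than the members 5 of 9 were higher and 3 lower in PPFP cells. These were 3 and 2 without EV replicate 1 or PPFP replicate 2. Shc1, which couples receptors to the RAS pathway, was at 256 ± 48.2 CPM in EV and 745 ± 45.2 CPM in PPFP cells (log2 fold change 1.54, SE 0.14, adjusted p = 0.000133). Dok4 (-1.02, adjusted p = 0.00146) and Sh2b2, an adaptor of the insulin receptor (-0.77, adjusted p = 0.00333), were lower. Irs3, a further docking protein of rodents that was named after its value was seen, was at 1.32 ± 0.21 CPM in EV and 4.01 ± 1.49 CPM in PPFP cells (1.60, SE 0.32, adjusted p = 0.00484). Its direction was opposite to that of Irs1 and Irs2.

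Of 15 PI3-kinase, AKT and mTOR genes 3 were higher and 5 lower, but 2 and 2 without EV replicate 1 or PPFP replicate 3, which lost Pik3r1, Pik3r2, Pik3r3 and Mtor, and 2 and 3 without PPFP replicate 2. Pik3cd, a catalytic subunit best known from leukocytes, had 12 to 39 counts in EV cells and 118 to 133 in PPFP cells (log2 fold change 2.74, SE 0.41, adjusted p = 0.00132), with no overlap. EV replicate 1, at 1.32 CPM, was above the other two, at 0.400 and 0.436 CPM, and without it the log2 fold change of Pik3cd was 3.51 (SE 0.26, adjusted p = 0.000277). The summed level of 4 leukocyte markers was 0.537 to 1.05 CPM in EV and 0.883 to 1.49 CPM in PPFP libraries. Of the 4, 3 (Ptprc, Csf1r and Cd3e) had at most 3 counts in each PPFP library, and Ptprc had 0 there. Cd68 was at 0.53 ± 0.10 CPM in EV and 0.95 ± 0.21 CPM in PPFP cells without the drug. The part of leukocytes in the Pik3cd result was not tested. Pik3cb, another catalytic subunit, was higher (0.60, adjusted p = 0.00164) and Rptor, the scaffold of mTORC1, was lower (-0.89, SE 0.094, adjusted p = 0.000261). Of 13 inhibitors of the pathway 5 were lower and 0 higher, where 23.1% and 22% of all genes were. The lower count was 3 without EV replicate 1 or 2 and 2 without PPFP replicate 3. The 5 include Ptprf (-1.52, SE 0.088, adjusted p = 1.64e-05) and Ptpn1 (-0.42, adjusted p = 0.00489), phosphatases that act on the insulin receptor, and Inppl1, a lipid phosphatase (-0.35, adjusted p = 0.00674), whose call was lost without PPFP replicate 3 (adjusted p = 0.0552).

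Of 5 FoxO factors and insulin-regulated genes 1 was higher and 3 lower, but the lower count was 2 without EV replicate 1, PPFP replicate 1 or PPFP replicate 2 and 1 (Slc2a4) without PPFP replicate 3. Slc2a4, the insulin-responsive glucose transporter GLUT4, had 53 to 73 counts in EV cells and 1 to 5 in PPFP cells (log2 fold change -4.14, SE 0.41, adjusted p = 0.000203). The FoxO factors went in both directions, with Foxo3 lower (-0.39, adjusted p = 0.0108) and Foxo1 higher (0.58, adjusted p = 0.0124). Without PPFP replicate 3 the calls of Foxo3 (adjusted p = 0.0576) and Slc2a1, a glucose transporter (0.0992), were lost, and that of Slc2a1 also without EV replicate 1 or another PPFP replicate (0.0514 to 0.0981).

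**Figure D5:**
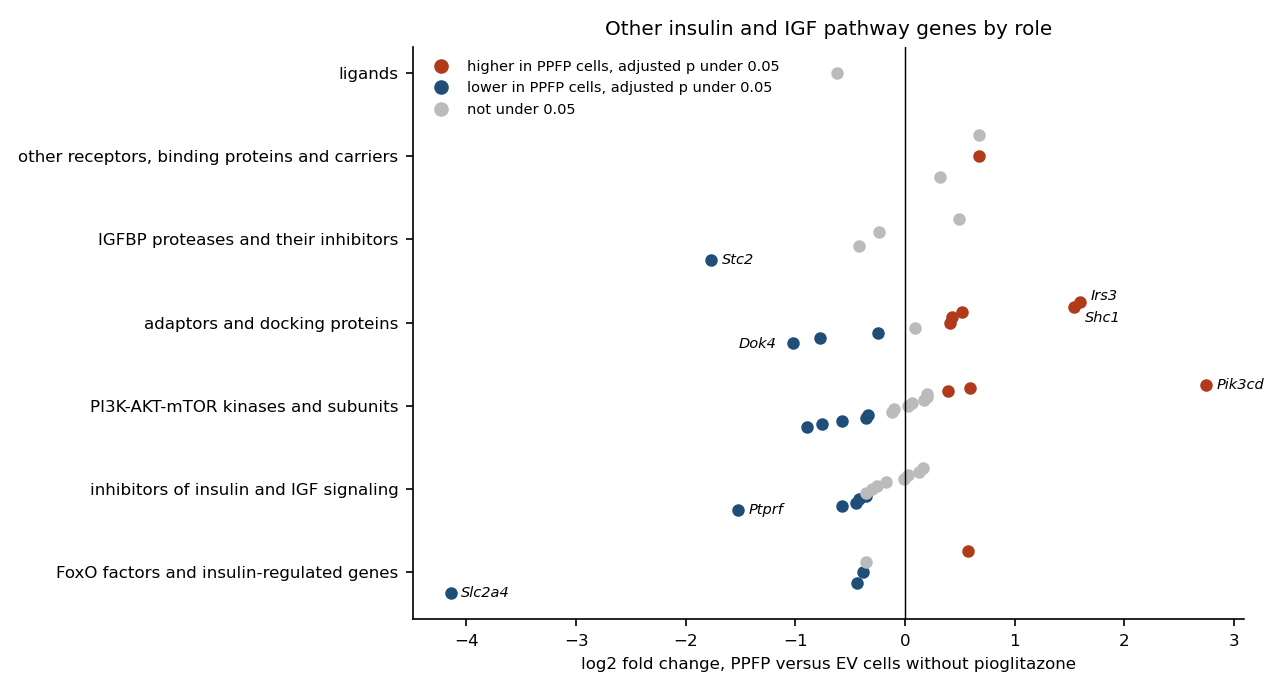
Log2 fold change of PPFP versus EV cells without pioglitazone (horizontal axis) for the 50 tested pathway genes other than the members, by role (vertical axis; points are spread within a role for sight only). Red points were higher and blue points lower at an adjusted p under 0.05, grey points did not pass, and genes past a fold change of 2 that passed are named. Slc2a4 lies at -4.14 and Pik3cd at 2.74.

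With pioglitazone 3 of 48 pathway genes rose in PPFP cells and 7 fell, against 7.63% and 7.13% of all genes tested. Those that rose were Stc2, Pik3cd (0.74, SE 0.13, adjusted p = 0.0143) and Phlpp1, a phosphatase of AKT (0.72, SE 0.10, adjusted p = 0.00638). These genes were chosen after their values were seen, except Stc2 and Pik3cd, and so were 2 of those that fell, Akt1 (-0.27, SE 0.047, adjusted p = 0.0123) and Socs2, a feedback inhibitor of cytokine receptors (-0.59, SE 0.12, adjusted p = 0.0253). The calls of Pik3cd and Socs2 were lost without replicate 2 or 3 of either treatment (adjusted p = 0.0537 to 0.0733 and 0.0547 to 0.09), that of Socs2 also without treated replicate 1 (0.0559). The call of Akt1 was lost without untreated replicate 3 or treated replicate 2 or 3 (0.0669 to 0.0764). With the replicate block 35 of 48 passed, against 51.6% of all genes tested. Without the block the count was 17 without untreated replicate 1 and 3 to 5 without replicate 2 or 3 of either treatment. Of all genes tested 1729 and 632 to 755 passed in these fits, against 1486 with all 6 libraries. In EV cells 0 of 50 passed by edgeR's quasi-likelihood test, 0 had an unadjusted p under 0.05, and the tagwise test and DESeq2 also passed 0.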

How the data were processed

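RNA of PPFP and EV cells was sequenced as 50-nucleotide paired reads. Per the submitters' processing notes the tools were CASAVA 1.8.2, TopHat2 2.0.11, HTSeq 0.6.1p1, edgeR 3.2.4 and BWA 0.5.9-r16. The authors aligned reads to rn4 and deposited unnormalized read counts per gene symbol from HTSeq in its intersection-strict mode, which counts a read only where all of it lies inside 1 gene; the annotation is not given in the sources used here. The kit does not mark strand, so a gene and an antisense partner cannot be told apart.

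After a filter on low counts (filterByExpr) and TMM scaling, edgeR 4.0.16 in R 4.3.3 gave the quasi-likelihood test, with Benjamini-Hochberg adjustment over all genes tested, on the 6 libraries of a comparison. The interaction used all 12. The standard error was the log2 fold change over the root of F, and the 95% interval is 1.96 standard errors either way. The biological coefficient of variation was between 0.126 and 0.156. Intervals and p-values cover the spread between 3 libraries per group, which are independent experiments per the series design. Depth was 23724703 to 35240176 counts per library. Alternatives were DESeq2 1.42.0, edgeR's tagwise tests, other scalings and filters, a replicate block and leaving out libraries. The script was tested on simulated data. Figures used Python 3.11.15 with matplotlib 3.10.9.

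Whether replicate numbers pair libraries was checked by correlating deviations of log2 CPM from the group means. Same-numbered libraries with and without pioglitazone correlated at 0.743, 0.464 and 0.432 in PPFP cells and 0.53, 0.729 and 0.774 in EV cells, so the block was used beside the drug comparisons. In PPFP cells untreated 2 with treated 3 and untreated 3 with treated 2 correlated as well, at 0.535 and 0.35, so there the numbers set replicate 1 apart but not 2 from 3. In EV cells libraries of different numbers correlated at -0.042 or less. Deviations from a mean of 3 libraries sum to 0, so positive values at the same number force lower ones at other numbers. The lower values therefore add no support of their own.

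Named genes are the 10 members, up to 3 genes per pathway role with the smallest adjusted p without pioglitazone, the ligands, and the 3 nearest profiles of each member past both limits, of which 1 is not reported here. Irs3, Phlpp1, Akt1 and Socs2 were named after their values were seen. So were Pik3r1, Pik3r2, Pik3r3, Mtor and Slc2a1, named for calls that were lost on leaving out a library. The members and lists were chosen with earlier results of these data known. Peaks of PPFP were not used here, since gene positions in rn4 were not at hand.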

Additional observations from a re-analysis of the deposited data

Results flagged for a closer look

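The response of 3 members to pioglitazone differed between the cell lines by the interaction term with a replicate block in each line. For Igfbp5 the interaction was -0.58 (SE 0.069, adjusted p = 2.53e-05), with every PPFP pair lower with the drug and the EV pairs on both sides of 0. For Igfbp7 it was -0.16 (SE 0.043, adjusted p = 0.00996), with all pairs of both lines lower and the PPFP pairs lower by more. For Igfbp4 it was 0.55 (SE 0.16, adjusted p = 0.0188), with PPFP pair 1 on the opposite side of 0 from pairs 2 and 3. None of the 3 passed without the block, and with the block 34.3% of all genes tested passed.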

How the results depend on the processing

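In PPFP versus EV cells without pioglitazone the 7 members that passed did so, in the same direction, in all alternatives that tested them, and with pioglitazone the 6 members did, at the adjusted p alone, since calls at the fold limit changed on leaving out 1 library. Scaling by library size alone moved the median of all genes to -0.12 with pioglitazone and -0.08 without it, from 0.012 and 0.0016. The replicate block changed the counts for pioglitazone in PPFP cells from 1 to 5 members and from 10 to 35 pathway genes, and for the interaction from 0 to 3 and from 0 to 29. Over all genes tested the shares went from 14.8% to 51.6% and from 2.64% to 34.3%. The block changed no call of a member or pathway gene for the drug in EV cells. Between the lines same-numbered libraries correlated at -0.249, 0.316 and -0.32 without and -0.246, 0.237 and -0.378 with pioglitazone, so not every same-numbered pair deviated together. The study ran the libraries of an experiment on shared lanes, but the labels do not say that a number marks an experiment, and a shared experiment between the lines was not tested beyond this. With the block there, 7 members passed without pioglitazone and 7 with it, the addition being Igfbp4 (adjusted p = 0.034). Of all genes 4050 of 10264 and 4545 of 10291 passed in those fits. DESeq2 gave 2 members (Igfbp5, Igfbp7) and 16 pathway genes for pioglitazone in PPFP cells, and passed 2010 of all 10064 genes tested. Pathway genes with an interaction numbered 2 by the tagwise test, 3 by DESeq2 and 1 with no filter. Over all genes tested these passed 445 of 10482, 601 of 10482 and 253 of 13369. Leaving out 1 library gave 16 to 25 pathway genes in PPFP versus EV cells without pioglitazone, where 3444 to 4880 of all genes passed. For pioglitazone in PPFP cells it gave 0 to 1 members and 3 to 17 pathway genes, and for the interaction 0 to 2 pathway genes. Of all genes 632 to 1729 and 124 to 308 passed in these fits. Igfbp7 in PPFP cells had an adjusted p of 0.0681 by the tagwise test and 0.532 with all 12 libraries in one fit, while Igfbp5 passed in both (0.0195 and 0.0189). The cause of these changes was not tested. Low counts, at most 44 for Irs1 and 10 for Igfbp2 in a library, limit these genes. Alternatives on PPFP peaks were not run, since gene positions in rn4 were not at hand.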
